A study of Arabidopsis thaliana with 6 samples.

Results

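The jasmonate synthesis and response genes described here are ORA47, OPCL1, JRG21 and MYC3 of Arabidopsis thaliana. They were chosen by name, as probe sets that the platform annotation pairs with exactly 1 gene among these names, which gave 4 probe sets, 1 for each gene, of 22810 on the array. All 6 arrays carried RNA from roots of Columbia seedlings, 6 days after germination, that had spent 24 hours on medium with the iron chelator ferrozine (0.3 mM) in place of ferrous sulfate. In 3 samples the whole roots were harvested intact. In the other 3 the roots were digested to protoplasts, that is, cells freed of their walls, which were passed through a fluorescence-activated cell sorter with every cell collected, so that no cell type was selected. Every sample was iron-deprived, so the values say nothing on iron deficiency itself, and the effects of protoplasting and of sorting cannot be told apart. The study asked how the preparation of cells changes root transcript levels.

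Jasmonates are lipid hormones made from fatty acids of plastid membranes when plant tissue is wounded or attacked. Their synthesis starts in the plastid and ends with shortening of the side chain in the peroxisome, and conjugation to isoleucine gives the active form. The active form lets JAZ repressors be degraded, which frees MYC transcription factors to switch on target genes, among them genes that make more hormone and genes that inactivate it. OPCL1 codes for the peroxisomal ligase that attaches coenzyme A to a jasmonate precursor before the chain is shortened. ORA47 codes for a transcription factor of the AP2/ERF family that activates synthesis genes. MYC3 codes for a helix-loop-helix transcription factor that acts beside MYC2 and MYC4 and is bound by JAZ repressors. JRG21 is a jasmonate-regulated gene for an oxygenase that uses iron and oxoglutarate and hydroxylates jasmonic acid to an inactive form.

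Sorted cells gave higher signals than whole roots for ORA47, JRG21 and OPCL1, and lower signals for MYC3. The groups did not overlap for any of the 4 genes. ORA47 rose by 7.57 and OPCL1 by 2.90 on the log2 scale and MYC3 fell by 1.47, each past the test. ORA47 entered that test only through its sorted-cell signals, so its pass gives no support. JRG21 was too dim over all arrays to enter the test, and its signal as deposited was at least 16.7-fold higher in sorted cells. The test was limma on log2 signals over 13647 probe sets (sorted cells minus whole roots, Benjamini-Hochberg adjusted p under 0.05), for which controls and the 40% of probe sets with the dimmest mean were removed. It called 7360 probe sets, or 53.9%, with 23.7% higher and 30.2% lower, so a call by itself does not set a gene apart in this comparison. The groups did not overlap for 64% of the tested probe sets.

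**Figure D1:**
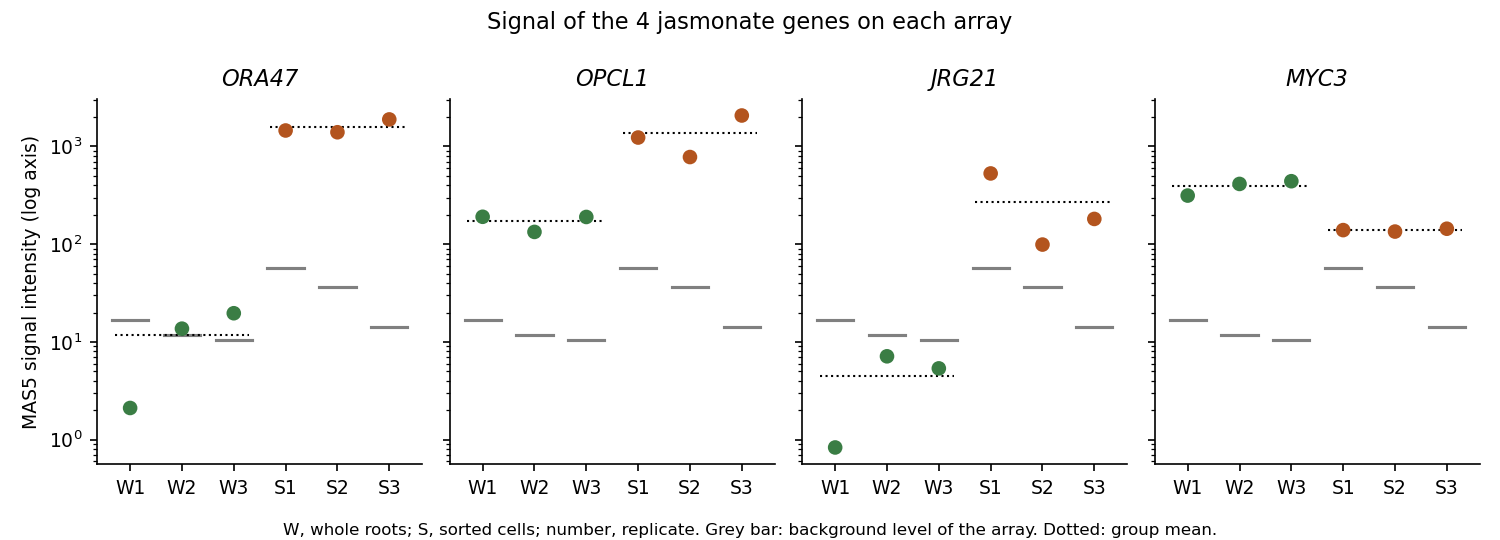
MAS5 signal intensity (log axis) of ORA47, OPCL1, JRG21 and MYC3 on the 3 whole-root arrays (W) and the 3 sorted-cell arrays (S); the grey bar is the background level of each array and the dotted line the mean of a group. ORA47 lies between 1398 and 1892 in sorted cells and at or under 19.7 in whole roots, and MYC3 is the gene that is lower in sorted cells.

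The arrays had been scaled by the authors to the same trimmed mean (250 on each), with medians of 74.9 to 91.5, and precision is limited by having 3 arrays a group. Nothing in the labels ties replicates to separate cultures, and the spread behind each p-value may therefore be technical. As a background level, each array's maximum over 27 bacterial control probe sets was taken, at 10.4 to 16.8 in whole roots and 14.3 to 57.4 in sorted cells. For actin, the 3′ control probe set exceeded the 5′ one by 1.69 ± 0.145 (log2, mean ± SD of 3 arrays) among whole roots and by 4.33 ± 1.10 among sorted cells, with the highest value, 5.53, on sorted-cell replicate 1. For GAPDH the excess was 0.757 ± 0.133 and 3.66 ± 1.36, and for ubiquitin 1.87 ± 0.092 and 2.60 ± 0.779. For each of these an exact permutation test (two-sided) gave p = 0.1, which is as low as 3 arrays against 3 can go. The 25S ribosomal RNA control read 97.5 to 551 in whole roots and 5690 to 9583 in sorted cells. Control probe sets for transcripts named bioB, bioC, bioD and cre, 18 in all, averaged 8.84 ± 0.067 (log2 signal) among whole roots and 10.46 ± 0.719 among sorted cells (exact permutation p = 0.1, two-sided, 3 arrays each). Of 28 marker genes 8 had a probe set, and limma called 6 of these lower and 2 higher in sorted cells. This stands beside 30.2% called lower and 23.7% called higher among all tested probe sets. The cortex gene AT1G09750 and the green tissue gene RCA passed the filter only through whole roots, so the count gives no support. AT1G09750, RCA and the green tissue gene LHCB4.1 each exceeded the background level on 2 of 3 sorted-cell arrays. The summed signal of 2 root hair markers was 2477 to 3172 in whole roots and 299 to 471 in sorted cells. The cortex gene AT1G09750 went from 259 to 328 down to 2.06 to 53.7, the stele gene LHW from 469 to 657 down to 258 to 416, and the xylem gene GUT2 from 109 to 131 up to 197 to 304. The root cap gene AT1G65570 went from 187 to 222 up to 3069 to 6875. The summed signal of 2 green tissue markers was 503 to 569 in whole roots and 68.2 to 141 in sorted cells. None of 8 iron deficiency genes on the marker list had a probe set paired with it alone, so the iron treatment was not checked here. The part of RNA quality and of cell type proportions in the results that follow was not tested, and fewer cells of a type and less RNA per cell cannot be told apart in bulk samples.

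Of the transcription factor genes, ORA47 had signals of 2.11, 13.7 and 19.7 in whole-root replicates 1, 2 and 3, and of 1458, 1398 and 1892 in the sorted-cell replicates. All sorted-cell arrays were high and close together, the highest being 1.35 times the lowest, whereas whole-root replicate 1 lay far under the other whole-root arrays. The background level was exceeded on 2 of 3 whole-root arrays, so the low side of this difference is barely measured and its size is imprecise. The means were 11.8 ± 8.92 and 1583 ± 269.6 (SD, n = 3 each), and the log2 difference was 7.57 (SE 0.70, 95% confidence interval 5.99 to 9.14, limma adjusted p = 5.05e-05). The lowest sorted-cell signal was 71.1 times the highest whole-root signal, a ratio that does not depend on the replicate with the lowest signal. ORA47 entered the test only through the sorted cells, since its whole-root mean lay under the filter threshold (a signal of 45.3 on the log2 mean). Its pass therefore gives no support. With 64 added to every signal before the log, which damps the differences of dim probe sets, the log2 difference was 4.44. It was 6.58 without whole-root replicate 1 and 8.19 without whole-root replicate 3, and passed in both.

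MYC3 went the other way. Its signals were 314.5, 414 and 441 in whole roots and 139, 135 and 144 in sorted cells. Every array of both groups lay above the background level, and the sorted-cell arrays were nearly equal, with an SD of 0.048 on the log2 scale where the median tested probe set had 0.37. The whole-root mean of 390 ± 66.6 exceeded the sorted-cell mean of 139 ± 4.62 by 2.77-fold as a ratio of geometric means (log2 difference -1.47, SE 0.20, 95% confidence interval -1.93 to -1.01, limma adjusted p = 0.000396, n = 3 each). In the order of falls MYC3 stood at place 1547 of 13647. The lowest whole-root signal was still 2.19 times the highest sorted-cell signal.

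MYC4, the close relative of MYC3, is the remaining transcription factor gene of the pathway list with a probe set. It had signals of 120, 121.5 and 167 in whole roots and 66.4, 54.4 and 77.5 in sorted cells. It fell by 1.04 on the log2 scale (SE 0.26, limma adjusted p = 0.00783), but without whole-root replicate 3 the value was -0.89 and did not pass (limma adjusted p = 0.0507, where the alternatives with a test span 0.00626 to 0.0507). The differences of MYC3 and MYC4 thus had the same sign, opposite to that of ORA47.

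OPCL1 was the synthesis gene among the members. Its signals were 191, 134 and 190 in whole roots and 1235, 780 and 2075 in sorted cells. All arrays lay above the background level, so both sides of this difference were measured. The sorted-cell arrays were spread more widely than the whole-root arrays, with replicate 3 at 2.66 times replicate 2. The means were 171.5 ± 32.8 and 1363 ± 657 (SD, n = 3 each), and the geometric means differed 7.44-fold (log2 difference 2.90, SE 0.34, 95% confidence interval 2.12 to 3.67, limma adjusted p = 0.000167). In the order of rises OPCL1 stood at place 371 of 13647.

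Among the synthesis genes, both directions occurred. Of 21 listed, 4 had a probe set and 3 were tested, of which OPCL1 rose and AIM1 and AT1G70480 fell. AIM1, which codes for a multifunctional enzyme of the peroxisomal chain shortening that follows the OPCL1 step, had signals of 1640, 1439 and 1433 in whole roots and 813, 884 and 942.5 in sorted cells. Its log2 difference was -0.77 (SE 0.18, limma adjusted p = 0.00647). AT1G70480, entered in the list as JASSY, a plastid envelope gene for export of a jasmonate precursor, and given only by locus in the gene table, went from 595 ± 46.3 to 244 ± 61.4 (n = 3 each, log2 difference -1.31, limma adjusted p = 0.00127). DGL, a listed synthesis gene that codes for a lipase, was at or under the background level on every whole-root array (1.51, 4.73 and 3.23). It read 78.1, 5.63 and 29.4 in sorted cells, where 2 of 3 arrays exceeded that level, and was not tested. With no filter, where 36.4% of 22746 probe sets were called and 17.6% were called higher, DGL passed (log2 difference 3.04, limma adjusted p = 0.0382), with a bound of at least 1.85-fold. Sorted-cell replicate 2 was also under background, so the difference of DGL is no estimate of size. The bound takes the signal of that replicate as read.

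JRG21 is a gene of hormone inactivation as well as of the jasmonate response. Its signals were 0.832, 7.13 and 5.36 in whole roots and 530, 99.2 and 181 in sorted cells. Every whole-root array lay at or under the background level and every sorted-cell array lay above it, with no overlap. Among sorted cells replicate 1 stood at 5.34 times replicate 2, the widest spread of the 4 genes. Set against the background level, the geometric mean of sorted cells as deposited was at least 16.7-fold higher. The lowest sorted-cell signal was 13.9 times the highest whole-root signal. The exact permutation test over the 6 arrays gave p = 0.1 (two-sided), again the lowest possible. The measured log2 difference was 6.06, and since its whole-root side is below background it is no estimate of size. JRG21 passed where the dim probe sets were kept (limma adjusted p = 0.00051), with 36.4% of probe sets called and 17.6% called higher. That pass, too, rests on whole-root signals below background. With the dimmest 40% defined by mean signal in place of mean log2 signal, an alternative chosen after seeing the data, JRG21 entered only through its sorted-cell signals, so that its pass (limma adjusted p = 0.00097, with 55.4% of probe sets called and 24.7% called higher) gives no support.

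The relatives of JRG21 in its oxygenase family are given only by locus in the gene table and entered the pathway list as JOX1, JOX2 and JOX4. JOX4 (AT2G38240) had signals of 18.4, 14.3 and 6.06 in whole roots and 1703, 288.5 and 827 in sorted cells. It rose by 5.99 on the log2 scale (SE 0.63, 95% confidence interval 4.57 to 7.40, limma adjusted p = 9.28e-05). Whole-root replicates 1 and 2 exceeded the background level, and like ORA47 it entered the test only through the sorted cells. The pass of JOX4 therefore gives no support either.

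JOX2 (AT5G05600) read 579, 729 and 867 in whole roots, far above background, and 2841, 671 and 1045 in sorted cells, so that the groups overlapped. It did not pass (log2 difference 0.81, 95% confidence interval -0.22 to 1.85, limma adjusted p = 0.159). Without sorted-cell replicate 1 the difference was 0.23, and without replicate 2 it was 1.27 and passed (limma adjusted p = 0.0303, where the alternatives with a test span 0.0303 to 0.437). JOX1 (AT3G11180) lay under the background level on all 6 arrays. JRG21, JOX4 and JOX2 were each highest on sorted-cell replicate 1 and lowest on replicate 2, whereas ORA47 and OPCL1 were highest on replicate 3. Replicate 1 was also the array with the largest actin difference and the highest background level, and the part of these in its JRG21 signal was not tested. Without it, the log2 difference of JRG21 was 5.40 and that of JOX4 was 5.39.

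**Figure D2:**
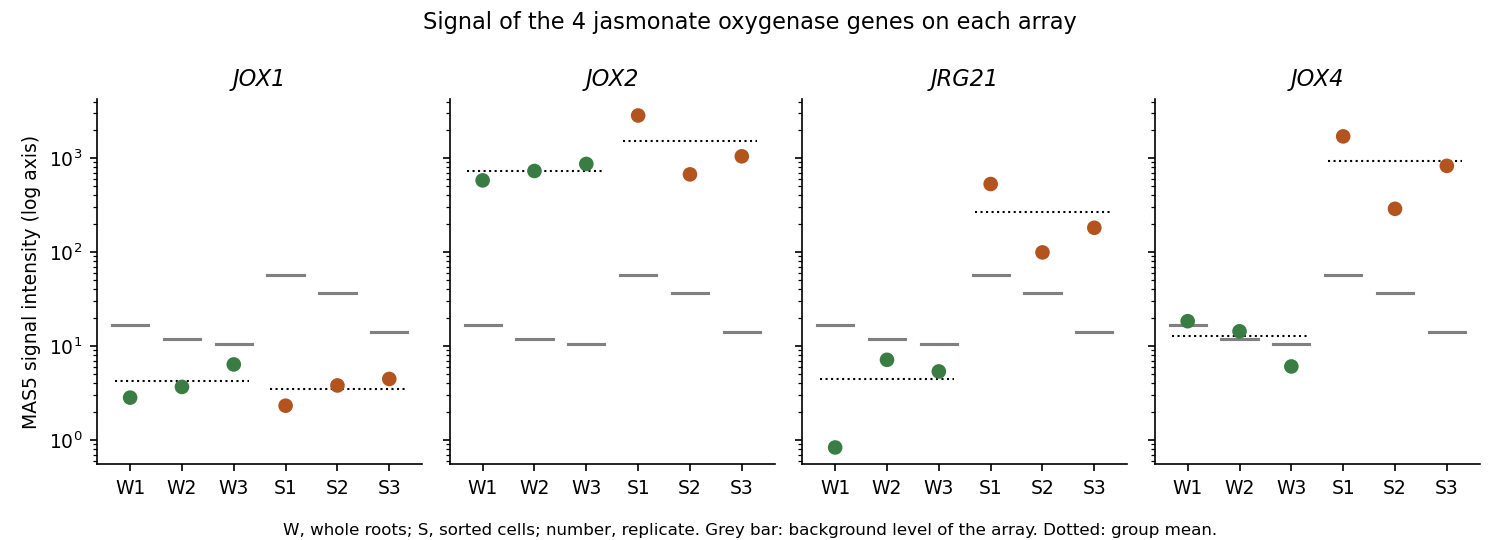
MAS5 signal intensity (log axis) of JRG21 and 3 related oxygenase genes on each array, with whole roots (W), sorted cells (S), the background level of each array (grey bar) and the mean of each group (dotted line). JRG21 and JOX4 are near or under background in whole roots and at 99.2 or more in sorted cells, JOX2 is bright in both groups, and JOX1 stays under background.

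Over the whole pathway list, 14 of 71 genes had a probe set that pairs with them alone, and 8 were tested. ORA47, OPCL1 and JOX4 were called higher, MYC3, MYC4, AIM1 and AT1G70480 lower, and JOX2 was not called. The 7 called of 8 stand beside 53.9% of all tested probe sets, but 2 of them (ORA47 and JOX4) passed the filter only through sorted cells, so the count gives no support. The median log2 difference of the 8 was 0.021, beside -0.16 for all tested probe sets. ORA47 and JOX4 are among the 8, so this median gives no support either. By role, the 3 tested synthesis genes had a median of -0.77, with a range of -1.31 to 2.90. The 3 tested transcription factor genes, ORA47 among them, had a median of -1.04, with a range of -1.47 to 7.57. Of 5 genes of hormone turnover with a probe set 2 were tested, JOX2 at 0.81 and JOX4 at 5.99. ORA47 and JOX4 were tested only through their sorted-cell signals, so the values of these 2 roles give no support. No gene of perception (2 listed) and none of the 16 listed repressors, JAZ genes included, had a probe set paired with it alone, so these steps were not analysed here. Of 8 listed response genes outside the oxygenase family, THI2.1, which codes for a thionin, read 12.8, 15.98 and 8.97 in whole roots and 65.6, 49.5 and 17.4 in sorted cells. It was not tested, and with no filter it did not pass (limma adjusted p = 0.065). PDF1.2, a defensin gene, lay under background on all 6 arrays, with signals of 1.25 to 17.0, and so did JMT, which codes for the enzyme that methylates jasmonic acid, at 0.511 to 2.35.

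**Figure D3:**
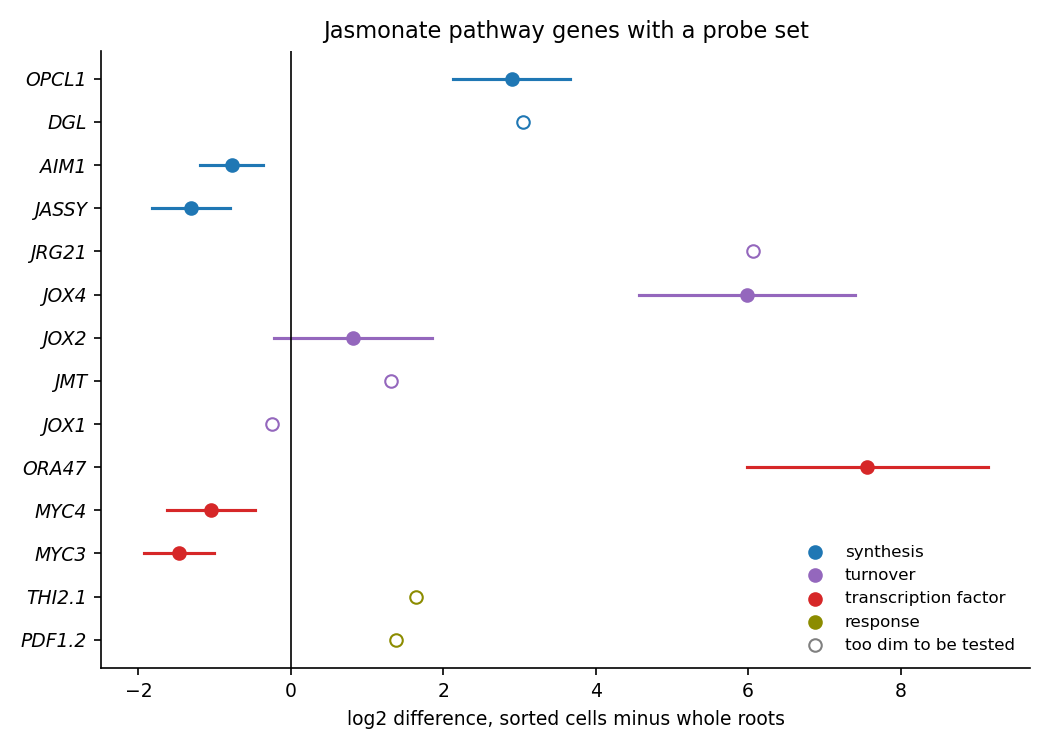
Log2 difference (sorted cells minus whole roots) of the 14 jasmonate pathway genes with a probe set, coloured by role. Filled points with a line are the 8 tested genes and their 95% confidence intervals from limma; JASSY is AT1G70480, and open points are genes too dim to be tested, with no interval. ORA47 at 7.57 and JOX4 at 5.99 lie to the far right, and MYC3, MYC4, AIM1 and JASSY lie left of 0.

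The signals depended on how the arrays were made comparable. As deposited, the 18 bioB, bioC, bioD and cre control probe sets were 1.61 higher (log2) in sorted cells, and on replicates 1, 2 and 3 they averaged 11.17, 10.46 and 9.74. When each array was centred on these controls, an alternative chosen after seeing the data, the median of all tested probe sets moved to -1.78. The log2 difference was then 5.95 for ORA47, 4.45 for JRG21, 1.28 for OPCL1 and -3.08 for MYC3. This centring takes the same 1.61 off every gene's difference, so it changes levels between the groups and leaves the order of the genes as it was. A gene whose deposited difference lies between 0 and that value changes sign by construction, as JOX2 does, to -0.80. Bounds given as at least a fold hold for the signals as deposited. This centring divides each bound by 3.06, a factor larger than the 1.85-fold bound of DGL.

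**Figure D4:**
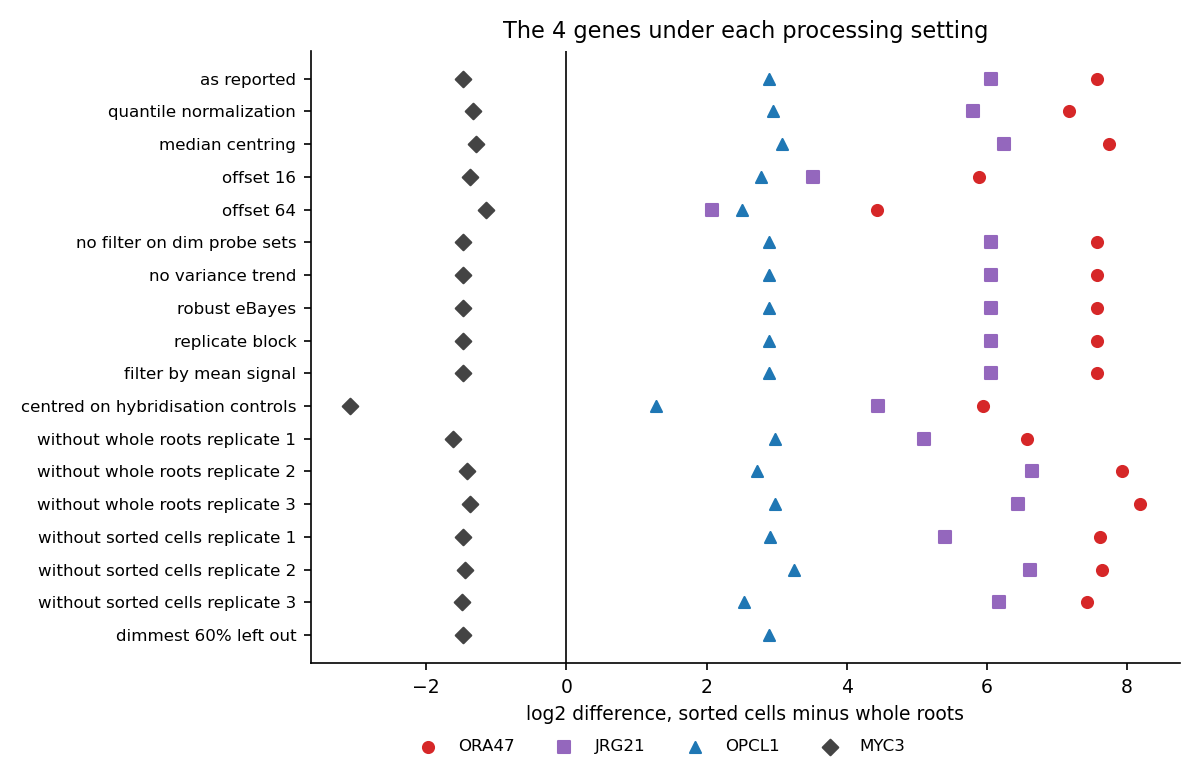
Log2 difference (sorted cells minus whole roots) of ORA47, JRG21, OPCL1 and MYC3 as reported and under each processing alternative. No marker of a gene crosses 0; JRG21 spans 2.07 to 6.65 and ORA47 4.44 to 8.19, and with the dimmest 60% left out both are missing.

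The patterns of the 4 genes over the 6 arrays were set against those of 7355 tested probe sets with 1 gene, by the Euclidean distance between log2 profiles centred on their own means. Closest to ORA47 were accD, a plastid gene for a subunit of acetyl-CoA carboxylase (distance 2.01), the calmodulin-like gene CML37 (2.03) and AT2G07708 (2.07), beside a median distance of 9.69. CML37 had signals of 0.989, 13.6 and 5.19 in whole roots and 1679, 442 and 620 in sorted cells. Closest to JRG21 were the plastid genes psbN (0.93), accD (1.12) and clpP (1.21), each highest on sorted-cell replicate 1. On whole-root arrays JRG21 and psbN never exceeded the background level, accD and ORA47 did so on 2 of 3 and CML37 on 1 of 3, so the distances to ORA47 and JRG21 rest partly on signals that are not measured. The genes accD, CML37 and psbN passed the filter only through sorted cells, so the filter also shaped which genes could be closest. The neighbours of OPCL1 in pattern were AT5G07860 (0.61), AT2G41640 (0.73) and WAG2, which codes for a protein kinase (0.73). Those of MYC3 were AT1G30090 (0.17), AT2G26800 (0.20) and AT1G26970 (0.21), against a median of 2.00. In whole roots, all 3 arrays exceeded the background level for each of the genes closest to OPCL1 and MYC3. In sorted cells the same held except for AT1G26970, which exceeded it on 2 of 3 arrays.

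**Figure D5:**
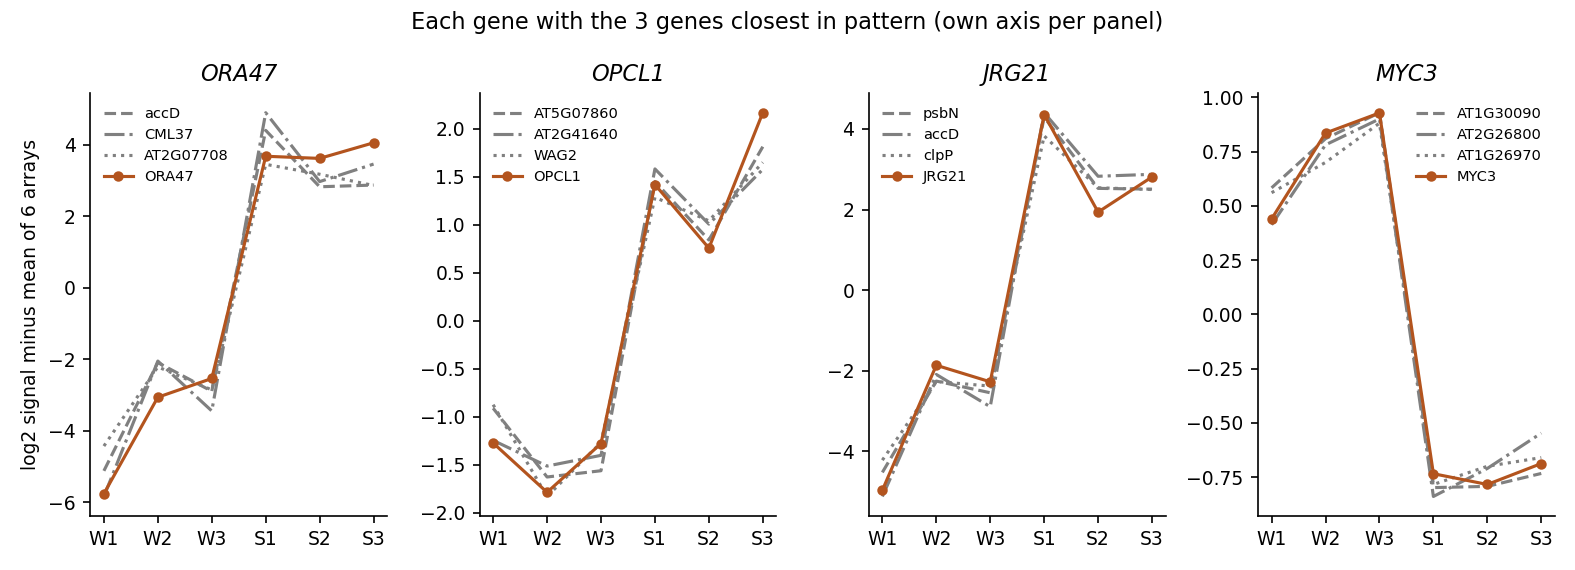
Log2 signal minus the mean of 6 arrays for each of the 4 genes (solid, with points) and for the 3 genes closest in pattern (broken grey), with whole-root arrays W and sorted-cell arrays S; lines only join values of a gene, and each panel has its own axis. ORA47 and JRG21 are lowest on W1, and MYC3 is lower on every sorted-cell array than on any whole-root array.

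Genes next to the 4 on the chromosomes were looked at after the values had been seen, 3 on each side in the order of the gene table. Of these 24 neighbours 14 had a probe set and 9 were tested, with 2 called higher, 1 lower and 6 not called, beside the 53.9% called (23.7% higher and 30.2% lower) among all tested probe sets. Beside ORA47, AT1G74910, ALDH10A8 and AT1G74940 stood at -0.047, -0.58 and 0.41 on the log2 scale, and ALDH10A8 passed (limma adjusted p = 0.0402) but lost its call under 8 of 16 alternatives, each whole-root array left out among them (limma adjusted p of 0.129, 0.11 and 0.111). Beside OPCL1, AT1G20490 stood at 0.54 and did not pass (limma adjusted p = 0.0617), and AT1G20500 was under background on all whole-root arrays and on 2 of 3 sorted-cell arrays. AT1G20520, on the far side of OPCL1, read 8.67 to 9.75 in whole roots and 64.7 to 74.2 in sorted cells, at least 5.38-fold higher as deposited, and was not tested. AT1G20480 went the other way, from 73.2 to 90.8 in whole roots down to 6.26 to 30.2 in sorted cells, where 1 of 3 arrays exceeded the background level, and was not tested either. AT1G20530 was under background on all whole-root arrays and on 2 of 3 sorted-cell arrays. Beside JRG21, AT3G55940 (0.20) and AT3G55960 (-0.17) did not pass. Beside MYC3, which fell, AT5G46730 (1.80, limma adjusted p = 0.000461) and AT5G46780 (1.66, limma adjusted p = 0.00825) rose, with 0.19 and 0.049 when arrays were centred on the hybridisation controls.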

How the data were processed

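RNA of 3 whole-root and 3 sorted-cell samples was amplified in a two-cycle protocol, per the labels' protocols, with 1 Affymetrix array per sample. What the authors deposited are linear signal intensities, computed with MAS5 according to the submitters' processing notes. The sources used here name no MAS5 version, scaling target or detection calls. Values were used as deposited.

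The array has 22810 probe sets: the platform annotation gives 1 gene for 13513 and more than 1 for 503, 64 are controls, and 8730 are unnamed here. The gene table (TAIR10.1) held 13436 of the 13513 and served for names and gene order only. The 40% of probe sets with the dimmest mean log2 signal were removed, and limma 3.58.1 (R 4.3.3; lmFit, then eBayes with a variance trend) was run on the other 13647. The fit was tested on simulated data. Other values came from Python 3.11.15, pandas 2.3.3, numpy 2.4.6, scipy 1.17.1 and matplotlib 3.10.9.

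Every member and every list gene with its own probe set could be named, with the 3 closest in pattern per member. Members, lists and tests were chosen with earlier results of these data known. For a bound, the brighter group's mean log2 signal was set against the background level, or against the gene's signal where that was higher, on each dim array. The alternatives changed the normalization (quantile, median centring), the offset before the log (16 or 64), the filter (none or 60%), the variance model (no trend, robust), the pairing (replicate block) or the arrays used (1 left out). Added after seeing the data were a filter by mean signal and centring on hybridisation controls. No sequences were used.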

Additional observations from a re-analysis of the deposited data

How the results depend on the processing

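As reported, ORA47 passed the filter only through its sorted-cell signals, so its passes behind that filter give no support. ORA47, OPCL1 and MYC3 kept their direction and passed under every alternative in which they were fitted, 15 for ORA47 and 16 each for OPCL1 and MYC3, centring on hybridisation controls not counted. That alternative takes the same amount off every gene's difference, and its arrays share one scaling error each, so it gave values with no test and no counts of calls: 5.95 for ORA47, 4.45 for JRG21, 1.28 for OPCL1, -3.08 for MYC3 and, with the sign turned, -0.80 for JOX2. With it included, the log2 differences ran from 4.44 to 8.19 for ORA47, 1.28 to 3.24 for OPCL1 and -3.08 to -1.15 for MYC3. ORA47 and JRG21 had no value with the dimmest 60% left out. JRG21, not tested as reported (6.06), passed with no filter, where 36.4% of probe sets were called. It also passed with the filter by mean signal, where 55.4% were called. Behind that filter it entered only through its sorted-cell signals, so that pass gives no support. The log2 difference of JRG21 was 6.06 in each, and moved to 3.51 and 2.07 with 16 and 64 added. Both offsets exceed the whole-root signals of JRG21, which lie under the background level. Leaving out each array gave 6.58 to 8.19 for ORA47, 2.54 to 3.24 for OPCL1, 5.10 to 6.65 for JRG21 and -1.62 to -1.37 for MYC3. The list held 3 genes called higher as reported, beside 23.7% of all tested probe sets, and 5 with no filter, beside 17.6%. With the dimmest 60% left out it held 1, and the share of all probe sets called higher was not computed there. Genes called lower were 4 as reported, beside 30.2% of all tested probe sets. With no filter they were 4, where 36.4% of all probe sets were called in either direction and 17.6% were called higher. With the dimmest 60% left out they were 3, and the share of all probe sets called lower was not computed there. More genes were tested with no filter and fewer with 60% left out, so these counts give no support. JRG21 and DGL, gained with no filter, lay at or under background on every whole-root array.

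Same-numbered samples did not deviate together (correlations of deviations from group means of -0.30, -0.16 and -0.046 for replicates 1, 2 and 3), so the replicate number was not taken as a pairing. With the replicate block 6599 probe sets were called in place of 7360, and the log2 differences of ORA47 (7.57), OPCL1 (2.90) and MYC3 (-1.47) passed, with no other call on the list changed. Signals at or under background, in whole roots for JRG21 and DGL, limit their differences to bounds, which hold for the signals as deposited.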
